A study of Mus musculus with 4 samples.

Results

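The NK cell receptors described here were 10 genes: NCR1, NCR3, KLRF1, KLRK1, KLRD1, KLRC1, KLRC2, KLRC3, KLRB1 and NCAM1. They were taken by gene symbol from the feature lists of both deposited libraries, which hold 36601 human genes, and all 10 were found. Their unique molecular identifiers (UMIs, 1 per captured transcript) were followed through cells that carried few or many CD3 transcripts, through cycling and resting cells, and by the treatment of the mouse.

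The cells were sorted for human CD45, a leukocyte surface protein, from MDA-MB-231 tumors. MDA-MB-231 is a human breast carcinoma cell line, injected here into the mammary fat pad of MISTRG mice. These immunodeficient mice carry human genes for M-CSF, GM-CSF and IL-3 and had been engrafted as irradiated pups with human fetal CD34+ stem cells, so the lymphocytes in the tumor developed from a human graft in a mouse host. All mice shared the strain, the kind of graft and the tumor line. The 7 untreated mice (hashtag name CTRL) received no drug, and the 7 maraviroc mice (hashtag name MARAVIROC) drank water with 300 mg/l of maraviroc from day 21 after tumor injection for 10 days, before tumors were taken on day 31. The age of the mice and the number of graft donors were not given in the sources used here, and the host lacks its own lymphocytes.

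NK cells decide whether to kill a target by weighing signals from activating and inhibitory receptors. NKp46, NKp30, NKp80 and NKG2D are activating receptors, most of which signal through small membrane adaptors. CD94 pairs with NKG2 proteins to bind HLA-E: the pair with NKG2A inhibits, whereas the pair with NKG2C activates. Subsets of T cells, in particular cytotoxic T cells, can carry several of the same receptors.

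The 2 libraries (reactions 1 and 2, each holding cells of 7 mice) held 42702 barcodes, 29120 and 13582, with 1.33e+08 and 1.75e+08 UMIs. A total of 37806 barcodes had 601 to 6000 detected genes and a mitochondrial share under the study's limit, of which 19817 carried 1 hashtag and were kept. Kept cells had a median of 3020 UMIs in reaction 1 and 9692 in reaction 2, so the reactions differed in depth. A total of 136 barcode sequences occurred in both reactions, 31 of them among kept cells. Without the members, the kept cells formed 19 clusters, 1 of which was NK-like by its markers (TRDC, XCL2, XCL1 and GNLY led it). This cluster held 1992 cells. The 1063 of them with at most 1 UMI over CD3D, CD3G and TRAC formed the NK class, with 37 to 172 cells in each of the 14 mice, and 676 with at least 3 such UMIs are described separately as CD3-high cells. Cells with at least 3 such UMIs in T-like clusters formed the T class (3157 cells, at least 10 in 12 mice), within which a CD8 gate (at least 2 UMIs of CD8A and CD8B, none of FOXP3) held 914 cells and a FOXP3 gate 1010. In the NK class GNLY stood at 12713 CPM (UMIs of a gene scaled to a common total per group), CD3D at 23.5 and CD3G at 3.39, against 1453, 877 and 446 in the T class. These values follow from how the classes were made: GNLY is on the list that named the cluster, and CD3D and CD3G were part of the cut. Of T cell genes outside the cut, CD3E stood at 182 CPM in the NK class and 295 in the T class, and TRBC2 at 182 and 493 CPM, so neither was absent from the NK class.

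Over all 37806 barcodes, before any hashtag or cluster was used, 27224 had at most 1 CD3 UMI, 2803 had 2 and 7779 had at least 3. These classes mix cell types, and every member except KLRF1 had a higher level in the CD3-high than in the CD3-low barcodes. The CD3-low barcodes held 68.7 CPM of KLRC1 (exact Poisson 95% interval from 67.4 to 69.9), and the CD3-high ones 192 CPM (189 to 196). KLRB1 stood at 37.9 and 135 CPM. KLRF1 was at 2.02 and 2.07 CPM, with overlapping intervals. In CD3-low barcodes the cycling ones (at least 3 UMIs over 10 proliferation genes) held more KLRC1 than the resting ones (at most 1), 121 against 44.1 CPM, and in CD3-high barcodes 250.5 against 136 CPM. The intervals cover counting error only. All further comparisons stay within named cells.

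The NK-like cluster held between 50.1% (KLRB1) and 84.2% (NCAM1) of each member's UMIs in kept cells. All 10 genes were higher in the NK class than in the T class in each of the 12 mice with enough of both cells. The plot of levels per mouse shows how the members differed in what T cells carried: NCAM1 and KLRF1 were low in both T cell gates, KLRC1, KLRD1 and KLRK1 were shared with the CD8 gate, and NCR3 and KLRB1 with the FOXP3 gate too.

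**Figure D1:**
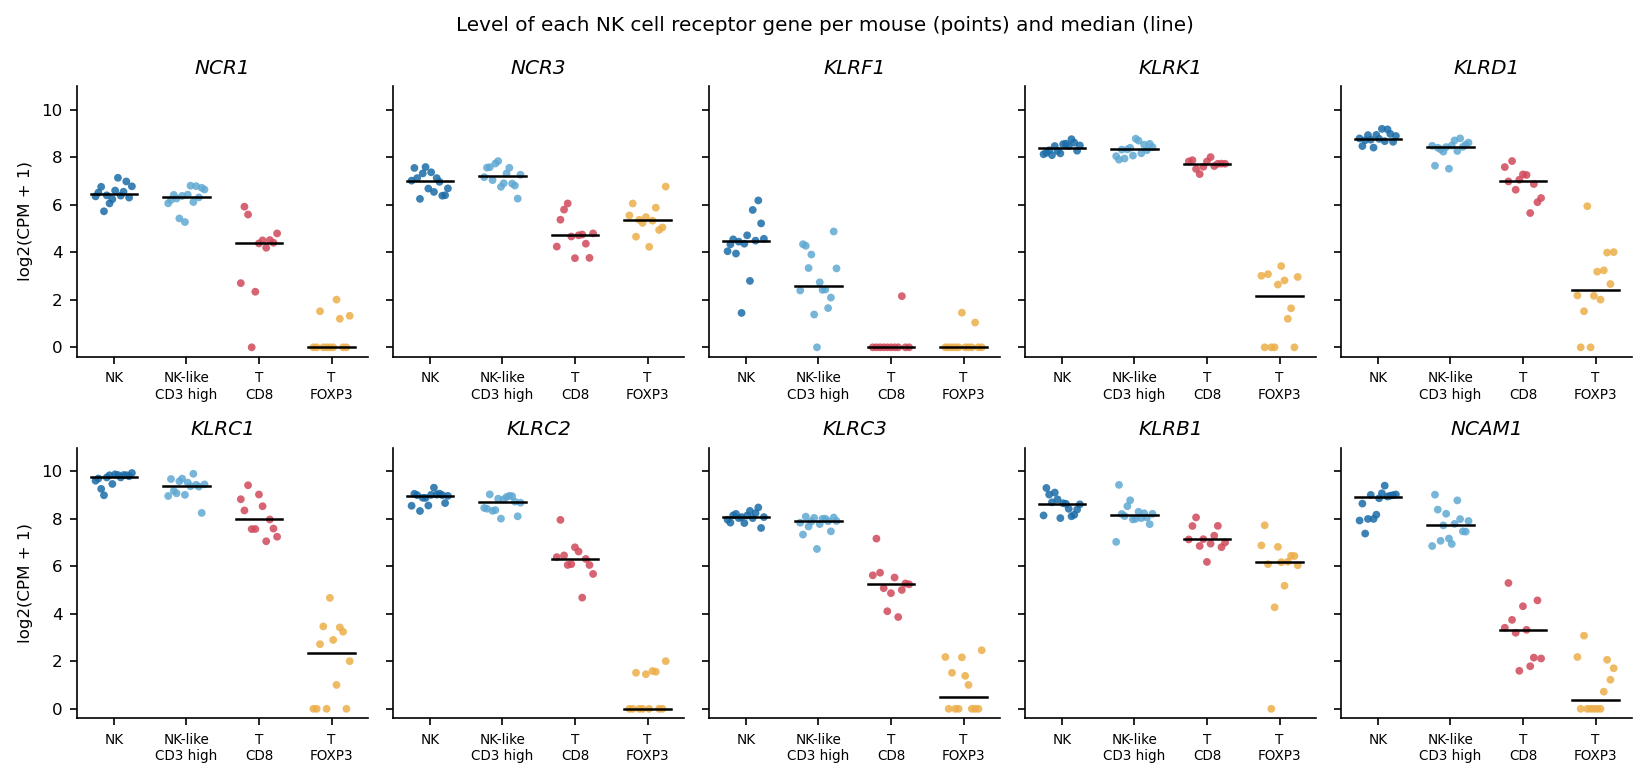
Levels of the 10 genes as log2(CPM + 1) on the vertical axis, 1 point per mouse with at least 10 cells, in the NK class, the CD3-high cells of the NK-like cluster, the CD8 gate and the FOXP3 gate of the T class; lines are medians. KLRC1 falls from a median of 869 CPM in the NK class to 249.7 in the CD8 gate and 4.30 in the FOXP3 gate, whereas NCR3 has a higher median in the FOXP3 gate (39.8 CPM) than in the CD8 gate (25.3).

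In a quasi-likelihood fit over 7620 genes (edgeR, mouse as a block), the 9 members that passed the low-count filter were all higher in the NK class, where 35.5% of genes differed at an adjusted p under 0.05 and 17.7% were higher in the NK class. KLRF1 was too sparse to be tested. In the T class NCAM1 had 0 to 56 and NCR1 0 to 59 UMIs per mouse, too few for the cycling test within that class. These 2 members passed the low-count filter here through the NK class and had to differ, so the count of 9 is no support. Since both classes were cut from clusters of the same cells, these differences describe the classes and are not a test of them, although the members took no part in the clustering. NCAM1 differed most, by 6.23 on the log2 scale (SE 0.31), followed by KLRC3 (4.01, SE 0.25), KLRC2 (3.84, SE 0.27), NCR1 (3.47, SE 0.27), KLRD1 (3.18, SE 0.21) and KLRC1 (2.90, SE 0.31). KLRK1 (2.03, SE 0.16), NCR3 (1.77, SE 0.18) and KLRB1 (1.35, SE 0.10) differed least. Within reactions 1 and 2 the differences kept their direction, with 5.03 and 6.85 for NCAM1 and 2.20 and 3.52 for KLRC1. Their size depended on how the classes were drawn. In 4 alternative clusterings NCAM1 differed by 3.57 to 3.87 and KLRC1 by 2.001 to 2.07. These 4 placed 12.45% to 26.2% of the T class in clusters led by proliferation genes. Cells with at least 3 CD3 UMIs in such clusters, NK-like or T-like, were counted in the T class. The clustering at resolution 0.4 had 0% in such clusters and is not in these ranges. All 9 members kept direction and call in it. With classes gated by markers in place of clusters NCAM1 differed by 2.43, KLRC3 by 1.63, KLRC2 by 1.56, KLRD1 by 1.54, NCR1 by 1.52, KLRC1 by 1.27, KLRK1 by 0.88, KLRB1 by 0.65 and NCR3 by 0.57, each still called.

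NCR1 (ENSG00000189430) encodes NKp46, an activating receptor used to define NK cells across mammals. In the NK class its lowest, median and highest levels over 14 mice were 51.9, 86.9 and 139.7 CPM. The CD8 gate held 0, 20.1 and 59.6 CPM over 11 mice, and its range overlapped that of the NK class. After each cell was thinned to 2000 UMIs, 16.3% of NK class cells had an NCR1 UMI (95% exact binomial interval 13.8% to 18.9%), against 4.5% in the CD8 gate and 0.11% in macrophage-like cells, which should lack it and stand here for the background of free RNA. Cells with fewer than 2000 UMIs were left out of this and the later thinned shares. These were 220 cells of the NK class, 11 of the CD8 gate, 21 of the FOXP3 gate, 570 macrophage-like and 46 B-like cells. The unthinned share in the NK class, over all 1063 cells, was 34.3%. Unthinned, 2.3% of carcinoma-like and 2.2% of mast-like cells had an NCR1 UMI, against 0.80% of monocyte-like cells. These groups had medians of 2788, 2025 and 9572.5 UMIs and differed in their makeup by reaction. The part of free RNA, of doublets within a mouse and of reaction in these shares was not tested.

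NCR3 (ENSG00000204475) encodes NKp30, an activating receptor whose ligands include B7-H6. Its levels in the NK class were 75.0, 126 and 192 CPM (lowest, median and highest of 14 mice). The FOXP3 gate held 17.8, 39.8 and 108 CPM and the CD8 gate 12.48, 25.3 and 65.5. The range of the FOXP3 gate overlapped that of the NK class, whereas the highest CD8 value lay under the lowest NK value. At 2000 UMIs, 21.7% of NK class cells, 8.8% of the FOXP3 gate, 4.3% of the CD8 gate and 0.56% of macrophage-like cells had a UMI. B-like cells had one in 8.6%. Unthinned, 5.3% of carcinoma-like cells had one.

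KLRF1 (ENSG00000150045) encodes NKp80, an activating receptor of mature NK cells that binds AICL (the product of CLEC2B). It was the sparsest member, with 154 UMIs in the NK class, between 1 and 32 in each mouse, and levels of 1.73, 21.2 and 71.6 CPM. The CD3-high cells of the NK-like cluster held 0, 5.04 and 28.4 CPM. In 10 of 11 mice the CD8 gate held no KLRF1 UMI. At 2000 UMIs 4.0% of NK class cells had one, against 0 of 903 cells of the CD8 gate, which allows a share of up to 0.332% by a limit of 3 counts, and 0 of 3769 macrophage-like cells, which allows up to 0.0796%. These limits are for cells with a UMI at this depth, not for cells that express the gene.

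KLRK1 (ENSG00000213809) encodes NKG2D, the activating receptor for the stress ligands MICA, MICB and the ULBP proteins. Its reads could be shared with the adjacent gene KLRC4. Levels in the NK class were 271, 333 and 433 CPM, and those in the CD8 gate were 156, 211 and 256 CPM, so the highest CD8 value lay under the lowest NK value. The FOXP3 gate held 0, 3.68 and 9.70 CPM. At 2000 UMIs the share of cells with a UMI was 44.1% in the NK class, 34.7% in the CD8 gate, 0.9% in the FOXP3 gate and 0.98% in macrophage-like cells. B-like cells had a share of 9.6%.

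KLRD1 (ENSG00000134539) encodes CD94, the partner of the NKG2 proteins. KLRC1 (ENSG00000134545) encodes the inhibitory NKG2A, KLRC2 (ENSG00000205809) the activating NKG2C, and KLRC3 (ENSG00000205810) NKG2E. The 3 KLRC genes are near-identical neighbours, so the division of reads between them is uncertain. KLRD1 levels in the NK class were 338, 439.8 and 585 CPM, against 49.3, 126 and 228 CPM in the CD8 gate. KLRC1 stood at 508, 869 and 972 CPM in the NK class and at 132, 249.7 and 679.6 CPM in the CD8 gate. KLRC2 stood at 320.2, 503 and 633 CPM against 24.6, 78.3 and 247 CPM. KLRC3 stood at 195, 268 and 355 CPM against 13.6, 36.8 and 142 CPM. Of this group only KLRC1 had overlapping ranges in the NK class and the CD8 gate, while the medians of all 3 KLRC genes in the FOXP3 gate were at or under 4.30 CPM.

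At 2000 UMIs, 89.3% of NK class cells had a UMI of at least 1 of the 3 KLRC genes, 41.3% of the CD8 gate, 1.3% of the FOXP3 gate and 2.9% of macrophage-like cells. KLRC1 was detected in 73.2% of NK class cells (79.2% unthinned), KLRC2 in 54.7%, KLRC3 in 40.0% and KLRD1 in 52.1%. In macrophage-like cells the shares were 1.8%, 0.93%, 0.74% and 2.0% in the same order. Unthinned, 15.1% of carcinoma-like and 13.4% of mast-like cells had a KLRC1 UMI. The inhibitory and the activating NKG2 transcripts were detected together in many cells. Of 843 thinned NK class cells, 354 held both KLRC1 and KLRC2, 263 KLRC1 without KLRC2, 107 KLRC2 without KLRC1 and 119 neither. KLRC2 was thus found in 57.4% of cells with KLRC1 and in 47.3% of those without. The uncertain division of reads between these genes limits this joint detection as well. Among cells with a KLRD1 UMI, 77.4% had KLRC1 and 62.9% KLRC2, against 68.6% and 45.8% of those without, and both shares were higher in 11 of 14 mice. In the CD8 gate KLRC1 was found in 54.2% of cells with a KLRD1 UMI and 29.8% of those without, higher in 9 of 9 mice that could be compared. These shares describe detection at a fixed depth and still move with a cell's RNA content.

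KLRB1 (ENSG00000111796) encodes CD161, an inhibitory receptor for LLT1 (the product of CLEC2D) that memory T cells carry as well. It stood at 260.1, 392 and 628 CPM in the NK class, 71.7, 139 and 265 CPM in the CD8 gate and 0, 71.6 and 211 CPM in the FOXP3 gate. The T cells outside both gates held 145, 217 and 394 CPM, with a higher median than either gate. The range of the CD8 gate just overlapped that of the NK class. NCAM1 (ENSG00000149294) encodes CD56, an adhesion molecule by which human NK cells are recognised. It stood at 165, 477 and 672 CPM in the NK class and at 2.03, 9.02 and 38.3 CPM in the CD8 gate, with no overlap. Its lowest levels in the NK class came from reaction 1. By reaction, untreated mice had a mean of 265 CPM in reaction 1 and 558 in reaction 2, and maraviroc mice 351 and 505 CPM. The NK class means of the other members were also higher in reaction 2 under both treatments, except those of NCR3 and KLRB1, which were lower. Reaction was not tested.

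A thinned NK class cell had UMIs of a median of 4 of the 10 members, at most 9, and 1.9% of cells had none. In CD3-high cells of the same cluster the median was 3, in the CD8 gate 1, and in the FOXP3 gate 0. Of macrophage-like cells 93.7% had none.

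**Figure D2:**
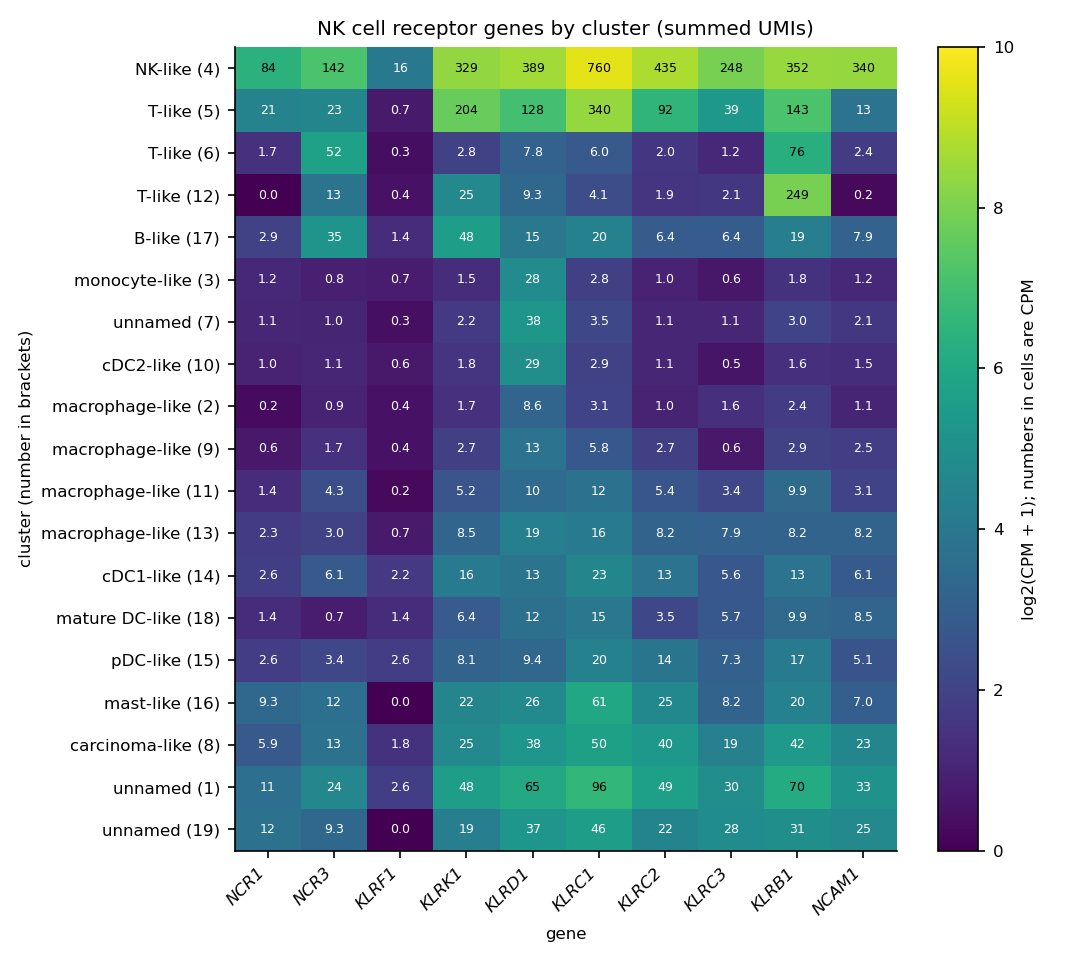
Level of each gene (columns) in each of the 19 clusters (rows), coloured by log2(CPM + 1) with the CPM of summed UMIs written in each field. The NK-like cluster is highest in all 10 columns; KLRB1 reaches 249 CPM in the T-like cluster 12, and KLRD1 27.6 CPM in monocyte-like, 29.5 in cDC2-like, 38.2 in the unnamed cluster 7 and 37.6 in carcinoma-like cells.

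Across the 19 clusters the NK-like cluster had the highest level of every member. The 3 T-like clusters split the genes. Cluster 5, led by CD8A and CD8B, held KLRC1 (339.5 CPM), KLRK1 (204 CPM), KLRB1 (143 CPM) and KLRD1 (128 CPM). Cluster 6, led by FOXP3 and IL2RA among others, held mainly KLRB1 (75.6 CPM) and NCR3 (51.7 CPM). Cluster 12, led by CXCL13, CD40LG and TCF7 among others, held 249 CPM of KLRB1, while its other members stood at 25.02 CPM or less. Over the 10 mice with enough T class cells in each cluster, KLRB1 in cluster 12 was 177, 275 and 346 CPM (lowest, median and highest). It exceeded cluster 6 in 10 of 10 mice by 1.72 ± 0.74 and cluster 5 in 8 of 10 by 0.76 ± 0.59 (mean log2 ratio ± SD). This pair was picked after the levels had been seen, so no test is given.

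KLRD1 was also detected outside lymphocytes. Monocyte-like cells held 17.2, 23.6 and 42.7 CPM over 14 mice and macrophage-like cells 2.46, 9.09 and 31.5 CPM, and the monocyte-like value was higher in 14 of 14 mice, by 1.25 ± 0.79 on the log2 scale. The ranges overlapped between mice. KLRC1 did not follow this order: it was higher in monocyte-like cells in 3 of 14 mice, with a mean log2 ratio of -0.37 ± 0.94. KLRD1 also reached 38.2 CPM in an unnamed cluster led by metallothionein genes and 29.5 CPM in cDC2-like cells, where KLRC1 stood at 3.53 and 2.90 CPM. Similar KLRD1 levels were found in carcinoma-like cells (37.6 CPM), mast-like cells (25.7 CPM, 22 UMIs) and the unnamed cluster 19 (37.2 CPM, 12 UMIs), but there KLRC1 was at 50.3, 60.7 and 46.4 CPM. These cell types too were picked after the levels had been seen. The low-depth unnamed cluster 1 held 3938 cells, 3837 of them from reaction 1, with a median of 2174 UMIs. It had no cell type name and held KLRC1 at 96.2, KLRB1 at 69.6 and KLRD1 at 65.2 CPM.

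Over the 19 clusters the genes outside the list whose log2(CPM + 1) pattern was most like that of KLRC1 were CTSW (Pearson r = 0.98), GNLY (0.97) and KRT86 (0.95). For KLRB1 they were CD96 (0.98), CD247 (0.98) and GZMA (0.96), for NCR3 DPF3 (0.94), NLRC3 (0.92) and IKZF3 (0.92), and for KLRF1 AC022075.1 (0.72), ITGAD (0.69) and XCL1 (0.69). The clusters share libraries and differ in depth, so these values describe likeness only.

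Within the T class, the CD8 and FOXP3 gates carried different receptors. In the 11 mice with enough cells in both gates, 42.1% of 7275 tested genes differed between the CD8 and the FOXP3 gate, and so did the 6 members that could be tested (NCR1, KLRF1, KLRC3 and NCAM1 were too sparse). KLRC2 was higher in the CD8 gate by 5.53 on the log2 scale (SE 0.30, edgeR), KLRK1 by 5.51 (SE 0.21) and KLRC1 by 5.35 (SE 0.30), each in 11 of 11 mice. KLRD1 was higher by 3.80 (SE 0.28), and KLRB1 by 0.75 (SE 0.17, adjusted p = 0.0013) in 10 of 11 mice. NCR3 was the exception: it was lower in the CD8 gate by -0.81 (SE 0.21, adjusted p = 0.0036), in 9 of 11 mice. Over 12 mice the FOXP3 gate held 0 to 4 UMIs of KLRC2, 0 to 9 of KLRK1, 0 to 15 of KLRC1 and 0 to 20 of KLRD1 per mouse, so these 4 members passed the low-count filter through the CD8 gate and had to differ. Their folds describe the gates, and the count of 6 is no support. The NCR3 call was lost in reaction 1 (-0.34, adjusted p = 0.57) and with gates drawn by markers in place of clusters (-0.33, adjusted p = 0.22), and that of KLRB1 in reaction 1 (0.64, adjusted p = 0.12).

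The NK-like cluster also held the 676 CD3-high cells. Their median of 7760.5 UMIs exceeded the 5034 of the NK class, and since the division rests on a UMI count, it moves with depth. They had TRDC at 676 CPM (749 in the NK class, 17.7 in the T class), CD3D at 508, CD3G at 99.7 and TRAC at 156 CPM (877, 446 and 577 in the T class) and CD8A at 54.5 CPM (318 in the CD8 gate). Hashtag doublets had been removed, whereas doublets of 2 cells from the same mouse could not be, and the part of such doublets and of depth was not tested. TRDC, a T cell receptor gene, was on the marker list that named this cluster. Whether the CD3-high cells were NK cells or T cells was not tested. The receptor levels of the CD3-high cells overlapped those of the NK class. KLRC1 stood at 302, 675 and 950.2 CPM over 14 mice, KLRK1 at 238, 320.3 and 439 CPM and NCAM1 at 115, 215 and 516 CPM.

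Compared with the NK class in the same mice, 5 of 9 tested members were lower in CD3-high cells, against 1.97% of 6649 genes called in either direction and 1.22% lower. This comparison was added after the data had been seen. NCAM1 was lower by -0.83 (SE 0.15, adjusted p = 0.0020, edgeR) in 11 of 14 mice and KLRD1 by -0.46 (SE 0.08, adjusted p = 0.0017) in 13 of 14. KLRB1 (-0.37), KLRC1 (-0.35) and KLRC2 (-0.26) passed at adjusted p-values of 0.017, 0.024 and 0.039. KLRC3 (-0.30, adjusted p = 0.0998), NCR1 (-0.20), KLRK1 (-0.07) and NCR3 (0.26, higher in 11 of 14 mice, adjusted p = 0.19) did not pass. Among cells of over 1000 detected genes NCAM1 alone of these 5 kept its call (-0.68, adjusted p = 0.042), and in reaction 1 it stood at -0.40 (adjusted p = 0.53) against -1.22 in reaction 2 (adjusted p = 1.6e-05). Under all alternatives for this comparison 31 member values lost their call, 62 kept their direction and side of the threshold, 2 gained a call and 4 turned in direction. The count of called genes moved in 10 alternatives and stayed in 1.

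The NK class held 508 cycling and 466 resting cells, a cycling share of 47.8%. Over 14 mice, 8 of 9 tested members were lower in cycling cells, against 35.9% of 3650 genes called in either direction and 18.5% lower. KLRB1 stood at 300.5, 549.9 and 711 CPM in resting and 199.6, 256 and 497 CPM in cycling cells, lower in 13 of 14 mice with overlapping ranges. Its change was -0.80 on the log2 scale (SE 0.12, adjusted p = 1.7e-06, edgeR). KLRC2 went from a median of 603 to 392 CPM (-0.68, SE 0.10, adjusted p = 3.1e-06), lower in 13 of 14 mice. KLRC3 went from 329 to 218 CPM (-0.66, SE 0.11, adjusted p = 2.0e-05), lower in 14 of 14. NCR1 went from 106 to 76.1 CPM (-0.66, SE 0.16, adjusted p = 0.0012), lower in 13 of 14.

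The other 4 calls were small. NCR3 changed by -0.35 (adjusted p = 0.038), KLRK1 by -0.26 (0.037), KLRD1 by -0.26 (0.022) and KLRC1 by -0.21 (0.033), lower in 10 or 11 of 14 mice each. None of these 4 passed within either reaction, without the mouse block (adjusted p from 0.057 to 0.15) or with classes gated by markers, where their changes lay between -0.12 and -0.01. KLRB1, KLRC2 and KLRC3 passed within both reactions, and NCR1 in reaction 1 (adjusted p = 0.0084) but not in reaction 2 (-0.49, adjusted p = 0.11). NCAM1 did not differ by the test (-0.09, 95% interval -0.35 to 0.17): it was lower in 7 and higher in 7 of 14 mice, with -0.46 in reaction 1 and 0.21 in reaction 2. Cycling cells had a median of 5681 UMIs and resting cells 4876. Under all alternatives for cycling in the NK class, 35 member values lost their call. A further 80 kept their direction and side of the threshold, and 2 turned in direction.

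In the T class cycling cells were higher in 3 members and lower in 2, and the makeup of the cells moved with the contrast. Of 836 cycling T cells 46.1% were in the CD8 gate, against 21.7% of 2101 resting ones. In 11 mice, 5 of 7 tested members changed, against 50.3% of 8409 genes (NCR1, KLRF1 and NCAM1 were too sparse). At this share over all genes, the count of 5 says nothing particular of the members. KLRC1 was higher in cycling T cells by 0.85 (SE 0.15, adjusted p = 3.0e-05, edgeR) in 9 of 11 mice, from a median of 75.0 to 140.4 CPM. KLRC2 was higher by 0.53 (SE 0.15, adjusted p = 0.0043) and KLRD1 by 0.49 (SE 0.14, adjusted p = 0.0057). KLRB1 was lower by -0.78 (SE 0.12, adjusted p = 1.3e-05) in 9 of 11 mice and NCR3 by -0.57 (SE 0.15, adjusted p = 0.0027) in 10 of 11. KLRK1 (0.26, adjusted p = 0.096) and KLRC3 (0.37, adjusted p = 0.14) did not pass. Under all alternatives for cycling in the T class, 9 values of these 2 members gained a call, and 9 values of the called members lost theirs. Cycling T cells had a median of 10668 UMIs and resting ones 5830. The calls of KLRC1, KLRC2, KLRD1 and NCR3 were lost in reaction 1. NCR3 stood between 0.04 and 0.14 in the 4 alternative clusterings that placed 12.45% to 26.2% of the T class in clusters led by proliferation genes, against 0% here.

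Cycling and resting cells were also compared inside the CD8 gate, a comparison added after the data had been seen. In 10 mice 34.9% of 4601 genes differed between its cycling and resting cells. Here KLRC1 stood at 95.5, 339 and 671 CPM in resting and 135, 233 and 694 CPM in cycling cells, and its difference was 0.07 (95% interval -0.22 to 0.36, adjusted p = 0.74, edgeR). Its difference from the change over the whole T class, which contains these cells, was not tested. KLRK1, which went from 203, 254 and 339 CPM to 121, 186 and 225 CPM, was lower in cycling cells by -0.55 (SE 0.11, adjusted p = 0.00045). KLRB1 was lower by -0.81 (SE 0.17, adjusted p = 0.00056). KLRD1 (-0.30, adjusted p = 0.094) and KLRC2 (-0.26, adjusted p = 0.34) did not pass. The other 5 members were too sparse in this gate. The call of KLRK1 was lost in reaction 1 (-0.59, adjusted p = 0.073).

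**Figure D3:**
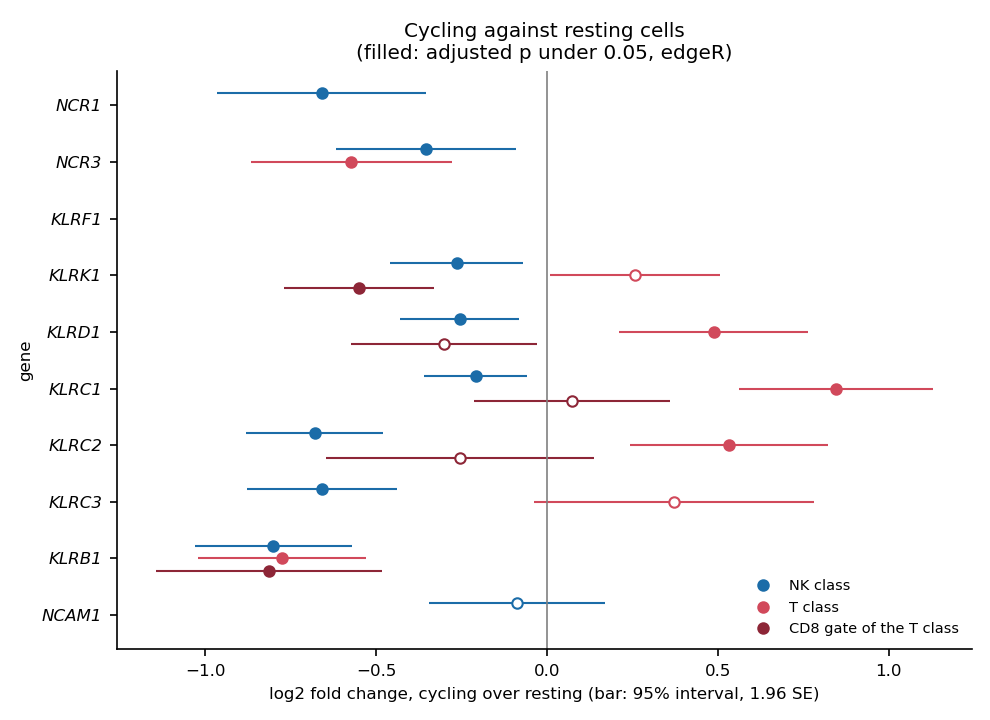
Log2 fold change of each gene between cycling and resting cells (horizontal axis, bars are 95% intervals by a normal approximation) in the NK class, the T class and the CD8 gate of the T class. Filled points passed an adjusted p of 0.05 (edgeR), and genes without a point were not tested. KLRB1 lies near -0.8 in all 3 groups, whereas KLRC1 lies at -0.21, 0.85 and 0.07.

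Whether the cycling effect differed between NK and T class was tested as an interaction over 6602 genes, of which 1.35% were called. None of the 9 tested members passed (edgeR), although 5 had an unadjusted p under 0.05. NCR1 came nearest (-1.33, SE 0.44, adjusted p = 0.12), followed by KLRC2 (-1.12, SE 0.37, adjusted p = 0.13) and KLRC3 (-1.10, SE 0.40, adjusted p = 0.18). NCR1 and NCAM1 had been too sparse for the cycling test within the T class and entered this one through the NK class. Cycling T cells held 0 to 37 NCR1 UMIs per mouse, so the NCR1 value rests on few T cell counts. KLRC1 stood at -0.95 (adjusted p = 0.27). This result depends on the clustering: in the 4 alternative clusterings with cells in proliferation-led clusters, 7 members passed (KLRC1, KLRC2, KLRC3, KLRD1, KLRK1, NCR1 and NCAM1). KLRC2 lay between -2.22 and -2.09 there and KLRC1 between -1.75 and -1.63. More genes were called over all genes in these clusterings than in the one reported here, with the counts given at the end. The 1.35% is not their share, and the 7 include NCR1 and NCAM1, so the count of 7 is no support. These clusterings also placed 29.7% to 36.3% of the NK class in such clusters, against 0% here. In a proliferation-led cluster, NK-like or T-like, cells with at least 3 CD3 UMIs were counted in the T class. In the clustering reported here the CD3-high cells of the NK-like cluster stayed outside the T class. The T class of the alternatives can thus hold cycling NK-like cells, and their part in the 7 passes was not tested.

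In these mice the study reported what maraviroc changed in myeloid cells. It gave no maraviroc test of NK or T cells from these mice, so the comparisons here are no check of its results. In the NK class no change in a receptor was detected: 0 of 9 tested members passed, and 0% of 6157 genes were called by edgeR (165 at an unadjusted p under 0.05; DESeq2 called 0, with 119). KLRC1 was 508, 828 and 935 CPM in 7 untreated and 706, 909.8 and 972 CPM in 7 maraviroc mice, with overlapping ranges and a log2 change of 0.16 (SE 0.14), 0.25 in reaction 1 and 0.04 in reaction 2. KLRB1 was 281, 402 and 628 against 260.1, 334 and 549 CPM, a change of -0.24 (95% interval -0.63 to 0.16). NCAM1 changed by 0.14 (95% interval -0.32 to 0.60), KLRK1 by 0.09 (-0.15 to 0.34), KLRD1 by 0.02 (-0.25 to 0.28) and KLRC2 by -0.07 (-0.35 to 0.21). The intervals thus exclude changes over 1 log2 unit in either direction for each of the 9 members. The cycling share of the NK class was 44.5% ± 11.5 in untreated and 45.4% ± 8.58 in maraviroc mice (SD, n = 7 each).

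In the T class no member passed the test, although the values of KLRC1 did not overlap between treatments. Here 5 untreated and 7 maraviroc mice had enough cells, and 0.00941% of 10624 genes were called (1 gene; 835 at an unadjusted p under 0.05), none of them among the 8 tested members. KLRC1 was 115, 202, 252, 265 and 297 CPM in the 5 untreated mice and 20.05, 52.5 and 111 CPM (lowest, median and highest) in the 7 maraviroc mice. These ranges did not overlap. The change was -1.80 (SE 0.32, adjusted p = 0.062, edgeR), with -1.495 in reaction 1 and -1.86 in reaction 2, and DESeq2 put it past the threshold (adjusted p = 0.027). Leaving out 1 mouse at a time gave -2.01 to -1.60 with adjusted p-values from 0.019 to 0.22, and only without untreated replicate 6 (0.019) or maraviroc replicate 5 (0.037) did KLRC1 pass, while classes gated by markers gave -0.80 (adjusted p = 0.88). KLRD1 changed by -1.22 (SE 0.27, adjusted p = 0.18; DESeq2 0.031; 0.040 to 0.40 with 1 mouse left out, past the threshold only without maraviroc replicate 3), KLRC2 by -1.64, KLRC3 by -1.55, NCR1 by -1.42 and KLRK1 by -0.71. KLRB1 stood at -0.01 and NCR3 at 0.37. Under the alternatives that left no mouse out, 5 member values gained a call, those of KLRC1 and KLRD1 by DESeq2 among them. The makeup of the T class moved in the same direction: the CD8 gate was 33.0% ± 9.73 of T class cells in untreated and 22.8% ± 7.28 in maraviroc mice, and the FOXP3 gate 27.7% ± 12.9 and 37.5% ± 6.46 (SD, n = 5 and 7). The summed level of the NK marker list in the T class moved with it as well, from 2958 ± 1585 CPM in untreated to 1613 ± 962 in maraviroc mice. The part of these shifts in the receptor values was not tested.

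The comparison was then repeated in the CD8 gate, which was chosen after the T class values had been seen. In 5 untreated and 6 maraviroc mice, 0.0698% of 7161 genes were called (5 genes; 379 at an unadjusted p under 0.05), and KLRC1 was among them. Its levels were 325, 368, 452, 519 and 679.6 CPM in untreated and 132, 189 and 249.7 CPM (lowest, median and highest of 6) in maraviroc mice, with no overlap. The change was -1.35 (SE 0.20, adjusted p = 0.0059, edgeR), 2.55-fold lower, with -1.33 in reaction 1 and -1.29 in reaction 2, although neither passed by itself (adjusted p = 0.47 and 0.12). A fit with reaction as a term gave -1.30 (adjusted p = 0.018). Leaving out 1 mouse at a time gave -1.48 to -1.17, with adjusted p-values between 0.0020 and 0.023. With a looser hashtag threshold (quantile 0.95) it was -1.09 (adjusted p = 0.073).

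The partner gene KLRD1 was 126, 152, 154, 191 and 228 CPM in untreated and 49.3, 87.6 and 132 CPM in maraviroc mice, and its change of -0.92 (SE 0.23, adjusted p = 0.30) did not pass. KLRC2 was 82.6, 86.8, 97.4, 110.3 and 247 CPM against 24.6, 65.5 and 78.3 CPM, with no overlap, and its change of -1.10 (SE 0.30, adjusted p = 0.40) did not pass either. KLRC3 (-1.18, adjusted p = 0.66), NCR1 (-0.70), KLRK1 (-0.18, 95% interval -0.44 to 0.08), NCR3 (-0.09) and KLRB1 (-0.08) lay further from the threshold. Under all alternatives for maraviroc in this gate, 3 values of members other than KLRC1 gained a call. Beside these values, the summed level of the NK marker list in the CD8 gate was 5009 ± 2064 CPM in untreated and 4143 ± 1653 in maraviroc mice, and its cycling share 46.1% ± 5.19 and 41.2% ± 4.74 (SD, n = 5 and 6). Their part in the result was not tested. Whether the KLRC1 effect differed between NK class and CD8 gate was not tested.

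**Figure D4:**
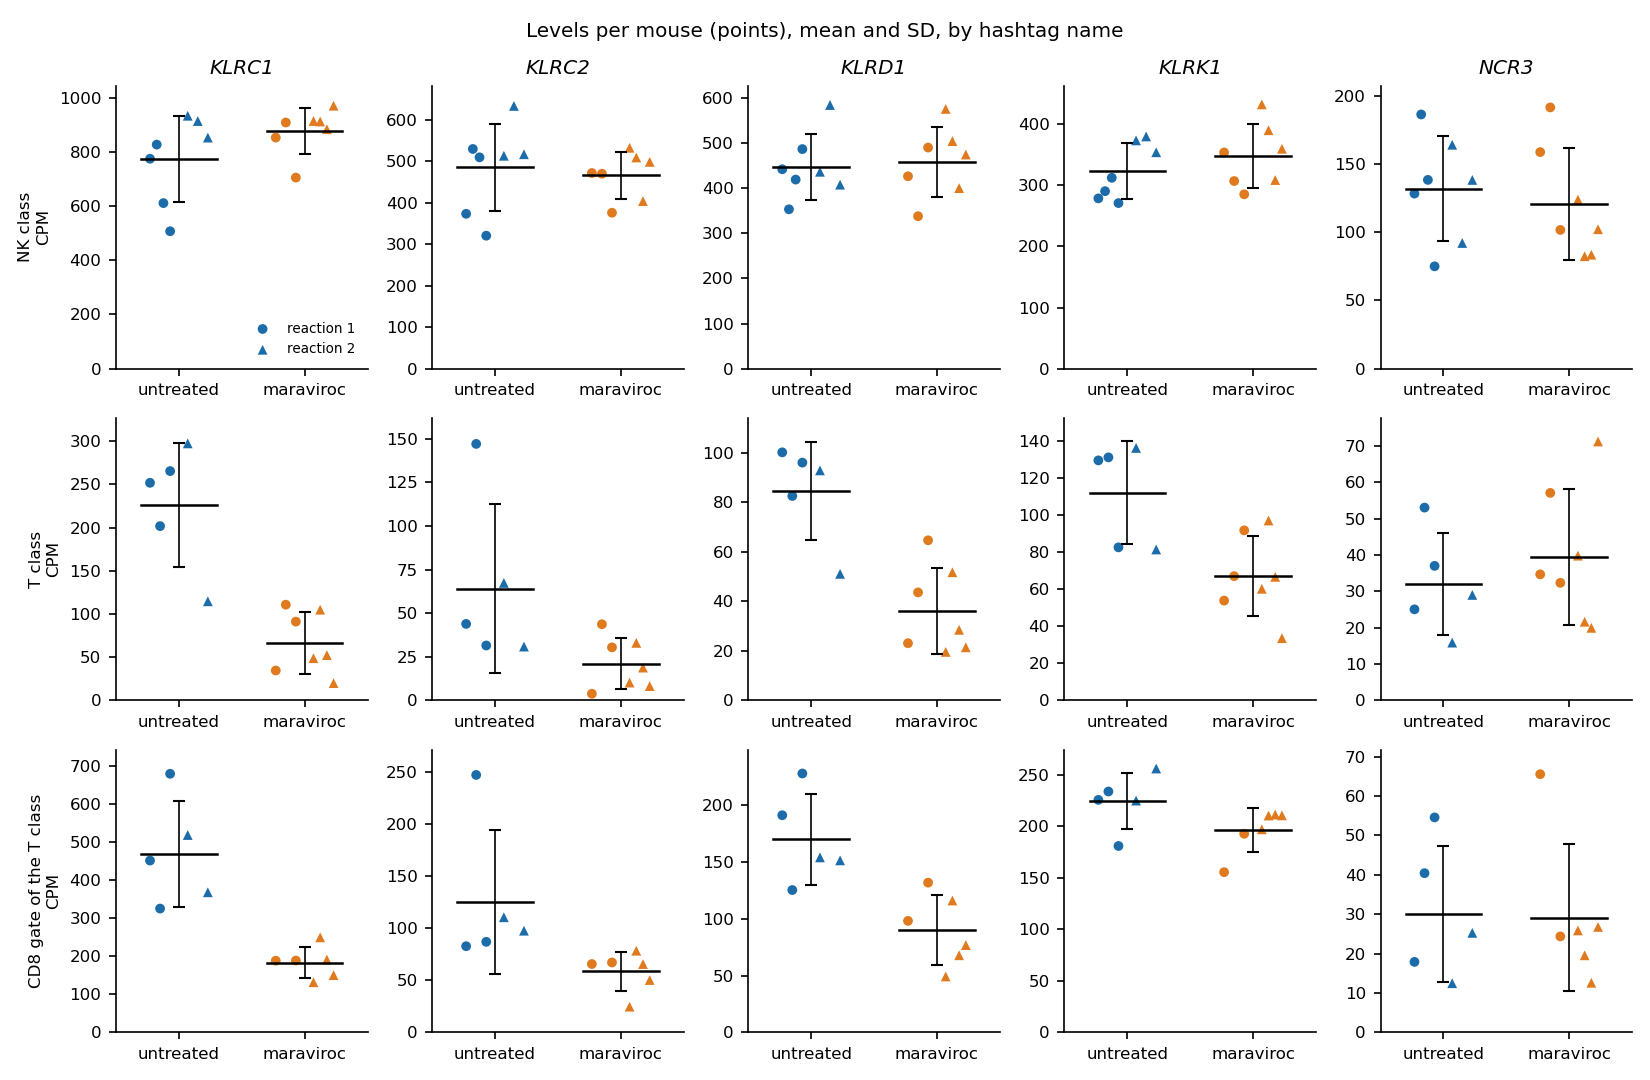
Levels in CPM (vertical axes, from 0) of KLRC1, KLRC2, KLRD1, KLRK1 and NCR3 in untreated and maraviroc mice, 1 point per mouse with at least 10 cells (circles reaction 1, triangles reaction 2), with mean and SD, in the NK class, the T class and the CD8 gate of the T class. KLRC1 overlaps between treatments in the NK class, while its untreated values of 325 to 679.6 CPM in the CD8 gate lie above all maraviroc values of 132 to 249.7 CPM.

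The wider pathway was read from lists of 6 adaptors, 24 other receptors (23 found) and 15 ligands. Of the adaptors 4 of 5 tested were higher in the NK class than in the T class and none was lower, where 17.7% of all genes were higher. FCER1G, which carries NKp46 signals, was higher by 3.87 (SE 0.17), TYROBP, the partner of NKG2C with CD94, by 3.80 (SE 0.15) and CD247 by 1.03 (SE 0.07). Of 12 other receptors 8 were higher, led by KIR2DL4 (3.80), KLRC4 (3.33) and CD300A (2.72), and 2 were lower, TIGIT (-1.11) and CD226 (-0.63). Unlike the members, the genes of these 3 lists were not kept out of the clustering that made the classes. Some may also have passed the low-count filter through the NK class alone. These differences thus describe the classes, and the counts of 4 and 8 are no support. In cycling NK cells, where 18.5% of all genes were lower, 5 of 6 adaptors were lower and 1 was higher: FCER1G changed by -0.72, HCST, the adaptor of NKG2D, by -0.66, TYROBP by -0.62 and SH2D1A by 0.85. Of 8 other receptors 6 were lower in cycling NK cells, with CD226 at -0.89, CRTAM at -0.53 and KLRC4 at -0.53, and none was higher. In the CD3-high cells, where 1.22% of all genes were lower, 3 of 6 adaptors were lower, with SH2D1B at -0.97, FCER1G at -0.50 and TYROBP at -0.50, as were FCGR3A (-0.99) and KIR2DL4 (-0.46) among 13 other receptors. None of 6 ligands passed there.

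In the T class, where 50.3% of all genes were called, 1 adaptor was higher and 4 were lower in cycling cells, among them SH2D1A (0.23), TYROBP (-0.65), FCER1G (-0.47) and HCST (-0.47). Of 8 other receptors CRTAM was higher (0.93), and SLAMF6 (-0.55) and TIGIT (-0.36) were lower. Of 5 ligands MICB was higher (0.56), and HLA-E and CLEC2D (-0.26) were lower. The counts of 3 of 8 and 3 of 5 lie near the share over all genes and say nothing particular of these lists. In the CD8 gate, where 34.9% of all genes were called, cycling cells were lower in HCST (-0.65), SLAMF6 (-1.03), SLAMF7 (-0.58) and CD96 (-0.51), and in the ligands CLEC2B (-0.50), HLA-E (-0.47) and CLEC2D (-0.32). The interaction called CD226 alone of the 3 lists (-1.16, adjusted p = 0.0073). Where 42.1% of all genes were called, the CD8 gate exceeded the FOXP3 gate in CRTAM (6.74), SLAMF7 (4.65), CD96 (2.17), SH2D1A (1.08), HCST (0.71), CLEC2B (2.06) and CLEC2D (0.41), whereas TIGIT (-0.33) and HLA-E (-0.28) were lower. These folds describe the gates, since some of these genes may have passed the low-count filter through the CD8 gate alone. No gene of the 3 lists was called for maraviroc in the NK class, the T class or the CD8 gate.

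The ligands of these receptors were measured in the same tumors. HLA-E, the ligand of CD94 with NKG2A or NKG2C, was present in every cluster, between 386 CPM in cDC1-like and 643 CPM in the T-like cluster 6. In cycling cells it was lower in both classes, by -0.37 in the NK class (adjusted p = 0.00082) and -0.64 in the T class (adjusted p = 4.7e-10). MICA, a ligand of NKG2D, stood at 26.9 CPM in the carcinoma-like cluster (21.7 to 33.1 as its 95% Poisson interval) and at 7.66 CPM or less in every other cluster. BAG6, a ligand of NKp30, stood at 65.4 CPM in the carcinoma-like cluster and at 37.4 CPM or less elsewhere. The carcinoma-like cells came through a CD45 sort, 717 of 779 from reaction 1, and do not stand for the tumor as a whole. CLEC2D, which encodes the ligand of CD161, was highest in the T-like cluster 5 (613 CPM), and CLEC2B, which encodes the ligand of NKp80, in the NK-like cluster (487 CPM). PDGFD, a ligand of NKp44, was found mainly in the NK-like cluster (63.2 CPM) and was higher in the NK than in the T class by 4.47 (SE 0.28), as was CLEC2B by 0.92 (SE 0.10). No UMI of RAET1L was found, and ULBP1 to ULBP3 stood at 8.69 CPM or less in every cluster.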

How the data were processed

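Human CD45+ cells of 14 tumors were sequenced in 2 droplet reactions with 1 hashtag per mouse. The submitters' processing notes name Cell Ranger 9.0.1, Seurat 5.1.0 and GRCh38; the authors deposited raw UMI counts per gene and barcode for called cells, with hashtags in the same matrix. The gene annotation was not given in the sources used here. Barcodes with 601 to 6000 genes and a mitochondrial share under the study's limit were assigned to mice with HTODemux (Seurat 5.3.0, quantile 0.99); hashtag doublets (10174 and 2142 in reactions 1 and 2) and negatives (5554 and 119) were left out, and no doublet caller was run within a mouse. The treatment of a mouse was read from the hashtag names CTRL and MARAVIROC in the deposited feature lists. In place of the study's Harmony integration, depth, mitochondrial share and reaction were regressed out, and cells were clustered (scanpy 1.11.5, 2000 variable genes without the members, 30 components, 20 neighbours, resolution 0.8). Clusters were named from marker lists, with thresholds on scores and leading genes set after the clusters had been seen, so names may differ from the study's.

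UMIs were summed per mouse and class (at least 10 cells) and tested over all genes with edgeR 4.0.16 in R 4.3.3 (quasi-likelihood, TMM, low-count filter, Benjamini-Hochberg, threshold 0.05). Mice are the replicates. For maraviroc, p-values weigh a change against the spread between mice. For comparisons within mice, they weigh it against how the difference within a mouse varied from mouse to mouse. Comparisons of cells within mice had the mouse as a block, since both sums came from the same animal. DESeq2 1.42.0 and the other alternatives are given at the end. Fold changes are log2 values, and the scripts were tested on simulated data. The members and gene lists were chosen with earlier results of these data known. All members are described; of each list the 3 called genes with the largest change in each direction are named, and for KLRF1, KLRC1, NCR3 and KLRB1 the 3 genes of most like pattern among those of at least 50 CPM in 1 cluster. Intervals of shares and of summed UMIs cover counting error only. Those of fitted changes rest on the same spread as the p-values and are normal approximations from the SE. They can be narrower than the test implies. KLRK1 in cycling against resting T cells had an interval of 0.008 to 0.506 at an unadjusted p of 0.054 (edgeR).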

Additional observations from a re-analysis of the deposited data

Results flagged for a closer look

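Of 55 sets of per-mouse values tested for a mouse far from the others, 6 stood out. By chance about 1 in 20 separate sets would. These sets are not separate, since the CD8 gate is a part of the T class, so the 6 cannot be set against that share. In the NK class, KLRF1 of untreated replicate 7 (reaction 2) was 54.0 CPM from 32 UMIs, against 25.3 CPM in the nearest of 7 mice. Untreated replicate 3 (reaction 1) was high in 3 sets of 5 mice: KLRC3 in the T class at 86.1 CPM (nearest 30.1), KLRC2 in the CD8 gate at 247 CPM (nearest 110.3) and KLRC3 in the CD8 gate at 142 CPM (nearest 52.1). Maraviroc replicate 2 (reaction 1) stood apart in 2 sets of 6 mice of the CD8 gate, with NCR3 at 65.5 CPM from 8 UMIs (nearest 26.8) and KLRK1 at 156 CPM from 19 UMIs (nearest 193).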

How the results depend on the processing

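For single members, 1079 values under an alternative stayed, 82 kept the direction and lost the call, 59 gained one and 65 turned in direction. To stay meant the same direction and side of the threshold. However, 2 of the 1079 are shares of NK class cells that stayed within the SD over mice, and 18 such shares moved. Of the counts of called genes, 109 stayed within 1.5 times the value reported. Those that did not are among 54 values, 2 of which are median shares judged by the SD. All alternatives for CD3-high cells and for the CD8 gate comparisons were chosen after seeing the data. Where a value moved, the cause was not tested unless fewer cells or genes entered by construction. Depth limits KLRF1 throughout, and NCR1, NCAM1, KLRC3 and NCR3 in T cells.

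Counts of called genes moved as follows. Without the low-count filter they were 4183 for NK against T class, 235 for the interaction, 30 for maraviroc in the NK class, 28 in the T class, 116 in the CD8 gate and 318 for CD3-high cells. In reaction 1 they were 1363 for NK against T class, 577, 1546 and 394 for cycling in the NK class, T class and CD8 gate, 0 for the interaction, 1152 for CD8 against FOXP3 gate, 41 for CD3-high cells and 0 for maraviroc in the T class and the CD8 gate. In reaction 2 they were 43 for the interaction, 53 for CD3-high cells and 0 for maraviroc in the T class and the CD8 gate. With CD3 limits of 0 and 5 UMIs they were 847 for cycling NK cells, 244 for CD3-high cells and 0 for maraviroc in the T class. Without the deepest cells, with over 1000 genes, with the looser hashtag threshold and at resolution 1.2, they were 299, 286, 284 and 322 for the interaction, 38, 39, 32 and 67 for CD3-high cells and 0 each for maraviroc in the T class. Resolution 0.4 gave 69 for CD3-high cells and the marker gate 0 for maraviroc in the T class. DESeq2 gave 12 for maraviroc in the T class and 11 in the CD8 gate. The median share of NK class cells with a member, 42.1% as reported, was 23.9% at 1000 UMIs per cell and 64.0% without thinning.

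The mouse is the block in comparisons within mice, since both sums came from the same animal. Without this replicate block the counts were 29 for the interaction and 27 for CD3-high cells, while NK against T class gave 2555, cycling 1063 in the NK class, 3462 in the T class and 1240 in the CD8 gate, and CD8 against FOXP3 gate 2834. In cycling NK cells the calls of NCR3, KLRC1, KLRD1 and KLRK1 were then lost, as were those of NCR3, KLRC1, KLRC2 and KLRD1 in cycling T cells. With reaction as a block, maraviroc gave 0 calls in the NK class, 4 in the T class and 5 in the CD8 gate, with KLRB1 at 0.15 in the T class and NCR3 at 0.23 and KLRB1 at 0.19 in the CD8 gate.

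Directions turned for values that had mostly not passed. For cycling NK cells NCAM1 was 0.088 with the marker gate and 0.21 in reaction 2. For cycling T cells NCR3 was 0.037, 0.051, 0.14 and 0.052 without the deepest cells, with over 1000 genes, with the looser hashtag threshold and at resolution 1.2, and in the interaction -0.34, -0.45, -0.58 and -0.46. In the interaction KLRB1 was 0.13 with the marker gate and 0.045 in reaction 2. For maraviroc in the NK class NCR1 was 0.092, NCR3 0.018 and NCAM1 -0.011 with the other CD3 limits, NCR1 was 0.030 and KLRC3 0.035 with the marker gate, and NCR3 was 0.18, KLRC2 0.012 and KLRD1 -0.040 in reaction 1, and NCAM1 -0.15 in reaction 2. KLRD1 was there -0.027 without the deepest cells, -0.0021 with over 1000 genes and -0.023 with the looser hashtag threshold. For maraviroc in the T class NCR3 was -0.045 without the deepest cells, -0.046 with over 1000 genes, -0.026 with the marker gate and -0.042 at resolution 1.2, and KLRB1 0.37 in reaction 2 and 0.0099 at resolution 0.4. In the CD8 gate NCR1 was 0.041 in reaction 2, NCR3 0.11 with the looser hashtag threshold, 0.014 and 0.35 in reactions 1 and 2 and 0.026 at resolution 0.4, and KLRB1 0.013 with the marker gate, 0.00079 with over 1000 genes and 0.75 in reaction 2. In CD3-high cells KLRK1 was 0.036, 0.032, 0.064 and 0.060 without the deepest cells, with over 1000 genes, with the looser hashtag threshold and at resolution 1.2. For cycling in the CD8 gate KLRC1 was -0.23 in reaction 1 and KLRC2 0.0069 with stricter cycling limits.

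Leaving out each mouse in turn gave 0 to 0 called genes for maraviroc in the NK class, 0 to 11 in the T class and 5 to 10 in the CD8 gate. The changes ranged in the NK class from -0.14 to 0.059 for NCR1, -0.12 to 0.020 for KLRC3 and -0.038 to 0.084 for KLRD1, in the T class from -0.15 to 0.14 for KLRB1, and in the CD8 gate from -0.44 to 0.23 for NCR3 and -0.31 to 0.19 for KLRB1.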
